A study of Mus musculus with 12 samples.

Results

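The cytosolic ribosomal protein genes examined here were chosen by name: those whose symbol is Rpl or Rps followed by a number and at most one of the letters a, x, l or y, together with Rplp0, Rplp1, Rplp2 and Rpsa. A gene entered through probe sets to which the platform annotation gives 1 symbol, and its brightest probe set over the 12 arrays stood for it. This gave 46 genes (100 probe sets) among 18193 genes with such a probe set, of which 22 encode proteins of the small subunit and 24 of the large subunit. A further 28 symbols of the same form occurred only in probe sets with several symbols, and these genes are not analysed here by name.

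The arrays measured RNA of G1ME cells, a mouse cell line of megakaryocyte-erythroid progenitors labelled Gata1-negative, a feature shared by every group. Cells received either the MIGR1 retroviral vector, which carries GFP, or a GATA1 construct, and GFP-positive cells were sorted 18 h or 42 h after transduction. The 4 groups (vector at 18 h, GATA1 at 18 h, vector at 42 h and GATA1 at 42 h) had 3 arrays each, described by the submitters as biological triplicates and lettered A, B and C. All groups are the same line, so the spread between arrays is one within a single line and not between animals.

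Ribosomal proteins assemble with ribosomal RNA into the small subunit, which decodes the messenger RNA, and the large subunit, which joins the amino acids. Their messenger RNAs are among the most abundant of a growing cell and begin with a cytosine followed by a run of pyrimidines, the 5′ terminal oligopyrimidine (TOP) tract, through which the mTOR pathway and LARP1 control their translation. In the red cell lineage, loss of 1 copy of genes such as RPS19, RPS24, RPS26 or RPL11 causes Diamond-Blackfan anaemia, deletion of RPS14 accounts for the anaemia of the 5q- syndrome, and mutations of GATA1 itself also give a Diamond-Blackfan-like anaemia.

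The tract and a promoter element were looked for in the RefSeq promoter windows of assembly GRCm38.p6, which reach from 250 bases before to 50 bases after the annotated start. Windows were found for 40 of the 46 genes (48 windows). The letters CTTTC or CTTTT, on the sense strand within 25 bases of the start, stood in 29.2% of these windows and in 11.5% of all 32851 windows. The ETS-type motif CCGGAAG, on either strand of the 300 bases, stood in 41.7% against 8.9% of all windows. The GATA-type motif, which is GATA preceded by A or T and followed by A or G, stood on either strand in 22.9% against 29.8%. These shares describe letters in a window, and an annotated start that lies away from the true start misses the tract.

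The 30 bases across the annotated start are shown for 6 of the 14 genes with a match, with each CTTTC or CTTTT in capitals. The first 2 are the genes that passed the test below. In Rps25 the match begins upstream of the stretch shown and runs into its first bases, which are left in lower case. That match lies wholly before the annotated start, so it is no tract of the transcript as annotated. The 6 stretches lie at chr4:86857353-86857382 (minus strand, Rps6), chr9:44407699-44407728 (plus, Rps25), chr11:114668565-114668594 (plus, Rpl38), chr7:141447636-141447665 (plus, Rplp2), chr2:39005117-39005146 (minus, Rpl35) and chr3:90213634-90213663 (minus, Rps27).
Rps6: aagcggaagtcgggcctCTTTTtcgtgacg
Rps25: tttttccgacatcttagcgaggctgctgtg
Rpl38: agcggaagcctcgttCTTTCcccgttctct
Rplp2: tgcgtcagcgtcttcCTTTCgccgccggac
Rpl35: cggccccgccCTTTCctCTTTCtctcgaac
Rps27: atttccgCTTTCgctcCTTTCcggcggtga

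The 250 bases before the start of Rps6 (chr4:86857368-86857617, minus strand) and of Rps25 (chr9:44407464-44407713, plus strand) are shown because these were the genes called at 42 h; capitals mark CCGGAAG and the GATA-type motif. Each holds 1 copy of CCGGAAG, and Rps6 also holds TGATAA.
Rps6: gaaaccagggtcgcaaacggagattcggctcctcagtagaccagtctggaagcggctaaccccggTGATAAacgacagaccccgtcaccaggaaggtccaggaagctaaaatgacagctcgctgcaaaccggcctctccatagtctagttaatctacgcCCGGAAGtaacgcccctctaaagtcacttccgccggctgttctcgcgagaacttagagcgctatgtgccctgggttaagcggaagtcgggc
Rps25: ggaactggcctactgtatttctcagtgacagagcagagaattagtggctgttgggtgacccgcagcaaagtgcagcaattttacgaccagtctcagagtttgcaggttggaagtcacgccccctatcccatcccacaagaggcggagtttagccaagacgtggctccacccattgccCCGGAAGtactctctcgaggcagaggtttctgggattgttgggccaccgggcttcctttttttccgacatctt

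The deposited values are linear intensities. Array medians lay between 8.05 and 8.29, and the number of arrays limits the precision. The summed intensity of 7 erythroid marker genes was 432.5 to 962.8 on the vector arrays at 42 h and 33260 to 39910 on the GATA1 arrays at 42 h, while 5 lymphoid markers summed to between 29.34 and 30.54 on every array, none of them passing the filter on low values. The probe set for Gata1 averaged 3137 ± 116 (SD, n = 3) in vector and 2044 ± 355 (SD, n = 3) in GATA1 cells at 42 h; no source used here places it relative to the construct or to the line's own gene, so it checks no label. The array of GATA1 at 42 h lettered A stood apart in its controls. Its probe set for the 5′ part of 18S ribosomal RNA read 5427 against 27.7 to 1506 on the others, and its log2 ratio of 3′ to 5′ actin signal was 0.80 against 0.38 to 0.55; values without it are given for the genes that passed the test, for the count of genes below 0, and for the named genes in which it was the lowest array.

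Most of the genes were very bright. A mean intensity above 10000 was found for 34 of the 46, against 281 of all 18193 genes, and 24 of the 50 brightest genes were ribosomal protein genes. The brightest were Rps29, a small subunit protein, at 66788 over all arrays, Rpl4, a large subunit protein, at 59868, and Rpl13a, a large subunit protein also known for a role in interferon-controlled translation, at 56487. Brightness depends on the probe set as well as the transcript, so this order is one of probe sets. The array maximum lay between 81374 and 91915, and whether signals this high compress a difference was not tested.

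**Figure D1:**
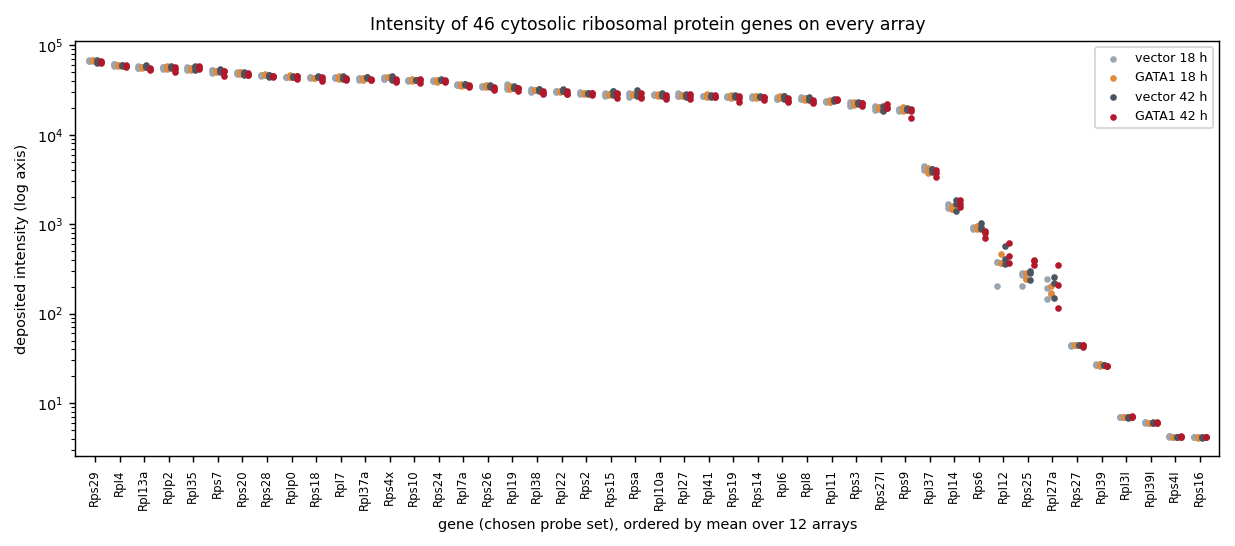
Deposited intensity (log axis) of the 46 genes on each of the 12 arrays, coloured by group and ordered by mean; each point is 1 array. A plateau of 34 genes above 10000 is followed by 6 genes between 100 and 10000 and 6 under 100.

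Another 6 genes read between 100 and 10000 on average: Rpl37 at 4003, Rpl14 at 1620, Rps6 at 890, Rpl12 at 410, Rps25 at 290.0 and Rpl27a at 202. The last 6 were under 100. Among these, Rps27 (44.4) and Rpl39 (26.6) passed the filter on low values, and Rpl3l, Rpl39l, Rps4l and Rps16 (7.0, 6.1, 4.2 and 4.2) did not and were not tested. Rpl3l, a form known from muscle, and Rpl39l, a form known from testis, therefore gave no response that could be measured. Of the 12 genes under 10000, 9 also occur in a probe set with several symbols, which was not used, so a dim value here describes the probe set used for the gene and not its transcript level.

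The first comparison asked what GATA1 did to these genes by 18 h. No ribosomal protein gene passed the test: limma called 0 of the 42 tested higher and 0 lower at an adjusted p of 0.05, where it called 1.85% of all 10759 genes, and 0 had an unadjusted p under 0.05, where 9.82% of all genes did. Differences are log2 differences on the scale of log2(intensity + 16), GATA1 minus vector. The median over the 42 genes was 0.01, beside -0.01 over all genes tested, and 17 of the 42 were below 0, or 40.5%, against 58.6% of all genes. The 34 genes above 10000 lay between -0.03 and 0.05, and their 95% intervals all fell between -0.16 and 0.19.

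The 3 largest positive differences at 18 h were those of Rpl12 (0.35, interval -0.26 to 0.95), Rpl6 (0.05) and Rps4x (0.05). The 3 largest negative ones were those of Rpl37 (-0.11, interval -0.28 to 0.06), Rpl14 (-0.10) and Rpl27a (-0.09). None of these groups of arrays separated, and the lowest adjusted p in limma was 0.892. Rpl12 and Rpl27a varied most between arrays of 1 group, so their intervals are wide and say little.

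**Figure D2:**
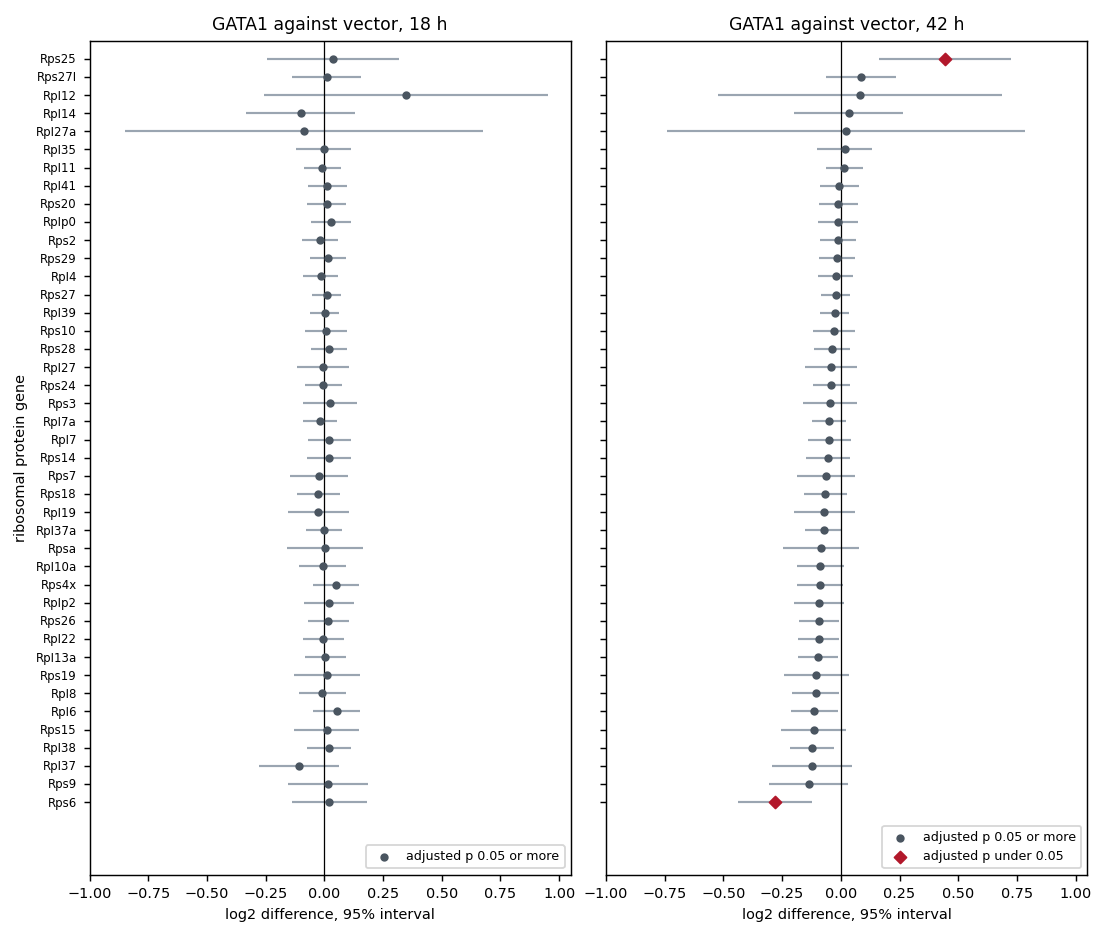
Log2 difference between GATA1 and vector cells (points) with its 95% interval (bars) for the 42 tested genes at 18 h (left) and 42 h (right), n = 3 arrays a group, in the order of the difference at 42 h; red diamonds mark an adjusted p under 0.05. At 18 h all bright genes sit near 0, and at 42 h 35 of 42 points lie left of 0, Rps6 and Rps25 being the ones called.

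The second comparison asked the same at 42 h, when the response of the cells as a whole was broad. Among the 42 tested genes 1 was higher (Rps25) and 1 lower (Rps6) in GATA1 cells, which is 4.76% against 20.9% of all genes tested (10.3% higher and 10.6% lower). An unadjusted p under 0.05 was reached by 8 of the 42 and by 31.7% of all genes. All 3 GATA1 arrays were beyond all 3 vector arrays for 1 gene upward (16.8% of all genes) and 8 genes downward (16.6% of all genes).

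Rps25 encodes a small subunit protein known for its part in initiation at internal ribosome entry sites. Its intensity was 285, 238 and 299 on the vector arrays at 42 h and 388, 393 and 352 on the GATA1 arrays at 42 h. All 3 GATA1 arrays were above all 3 vector arrays. The means were 274 ± 31.7 and 377 ± 22.4 (SD, n = 3), a log2 difference of 0.44 ± 0.12 (SE; limma adjusted p = 0.0320), or 36.1% higher. At 18 h the means were 252 ± 41.9 in vector and 257 ± 23.9 in GATA1 cells (SD, n = 3), and those arrays overlapped. The call was lost without vector array A (adjusted p = 0.0623), vector array B (0.109), GATA1 array A (0.0819) or GATA1 array B (0.099) of 42 h, with the difference between 0.35 and 0.47, and with no filter on low values (0.0693), and over 25 alternatives the adjusted p ran from 0.00841 to 0.126.

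Rps6 encodes the small subunit protein that S6 kinase phosphorylates downstream of mTOR. It read 939, 889 and 1017 on the vector arrays at 42 h and 846, 787 and 704 on the GATA1 arrays at 42 h. All 3 GATA1 arrays were below all 3 vector arrays, and also below the 18 h arrays, which lay between 882 and 950. The means of 949 ± 64.7 and 779 ± 71.3 (SD, n = 3) gave a log2 difference of -0.28 ± 0.07 (SE; limma adjusted p = 0.0193), a change of -17.7%. The adjusted p rose above the threshold without array C of vector (0.0614) or of GATA1 (0.0525) at 42 h and in a fit on the 6 arrays of 42 h alone (0.0993); over 25 alternatives it ran from 0.00821 to 0.0993. Without GATA1 array A of 42 h alone the difference of Rps6 was -0.34 (adjusted p = 0.00936 in limma). Leaving out the 4 arrays lettered A ended both calls in limma (adjusted p = 0.126 for Rps25 and 0.0577 for Rps6). The differences were then 0.45 for Rps25 and -0.35 for Rps6, and 16.3% of all genes were called.

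**Figure D3:**
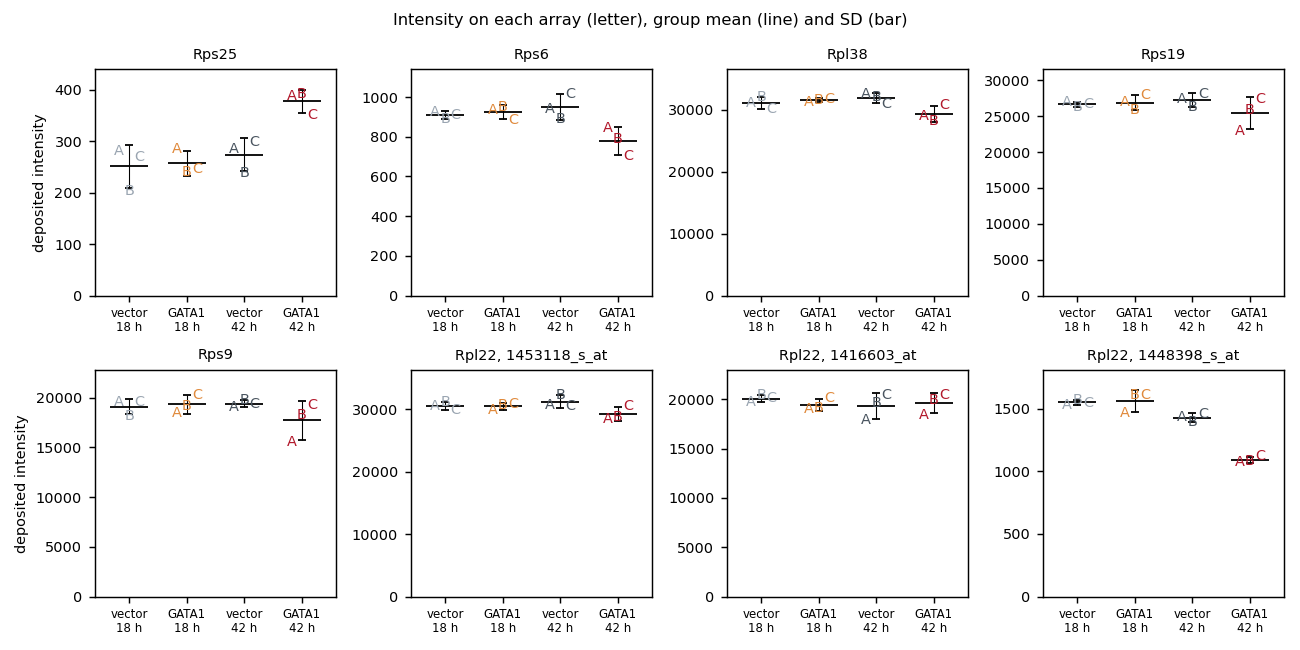
Deposited intensity on each array for 5 genes and for the 3 tested probe sets of Rpl22; letters are the arrays, lines the group means and bars the SD, and every axis starts at 0. The GATA1 arrays at 42 h are apart from the vector arrays of that time for Rps25 (above) and for Rps6 and Rpl38 (below). For Rpl22 they lie below for the dimmest probe set and, by a narrow gap, for the brightest. Those of Rps19, Rps9 and the middle Rpl22 probe set overlap.

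Rps6 and Rps25 are both among the genes under 10000. Of the 34 genes above 10000, 0 were called at 42 h, and 6 had an unadjusted p under 0.05. Their differences lay between -0.14 (Rps9) and 0.09 (Rps27l), and their 95% intervals within -0.31 and 0.23. Of the other 247 genes above 10000, limma called 26 higher and 16 lower.

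Few single genes passed the test, but the differences at 42 h were mostly below 0: 35 of 42, or 83.3%, against 49% of all genes tested, with a median of -0.05 (a change of -3.39%) against 0.00. Of the 34 bright genes 31 were below 0 with a median of -0.06, and of the other 247 genes above 10000, 125 were (50.6%). This count moved with the processing. It was 27 of 42 (64.3%) after quantile normalization, when 52.5% of all genes were below 0. It was 10 of 20 with only probe sets whose name carries no x, s or a (suffixes given to sets whose probes may match several transcripts), and 12 of 20 with the second brightest probe set. Of all genes 49.1% and 50.5% were below 0 in these settings. At 18 h the count was 24 of 42 after quantile normalization (52.5% of all genes). It was 8 of 42 with each array centred on the median of the genes tested (44.6% of all genes). The GATA1 array A of 42 h, which stood apart in its controls, was the lowest of all 12 arrays for 17 of the 42 genes, GATA1 array B of 42 h for 15 and GATA1 array C for 3; without array A the count was 34 of 42 and the median -0.04. The summed markers moved with the same groups at 42 h. In GATA1 and vector cells 5 megakaryocyte markers read 28910 to 36590 and 10650 to 12280, and 6 progenitor markers 10670 to 12730 and 13320 to 15540. For 8 mast and myeloid markers these sums were 380.9 to 454.8 and 2370 to 3141. Members of a list did not all move alike. Limma called 4 megakaryocyte markers higher and 1 lower (5 tested), and 1 progenitor marker higher and 3 lower (5 tested). Of the mast and myeloid markers 4 were tested, with 0 higher and 2 lower. Over all genes tested 20.9% were called. The part of these markers in the count below 0 was not tested.

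The 46 genes together held 8.17, 8.24 and 8.36% of the summed intensity on the GATA1 arrays at 18 h and 7.82, 7.98 and 8.16% at 42 h. The vector arrays held 8.16, 8.31 and 8.22% at 18 h and 8.37, 8.40 and 8.17% at 42 h. The means by group were 8.23 ± 0.08, 8.26 ± 0.09, 8.31 ± 0.13 and 7.99 ± 0.17% (SD, n = 3) for vector 18 h, GATA1 18 h, vector 42 h and GATA1 42 h. The GATA1 arrays at 42 h were below the vector arrays of that time, the highest of them lying next to the lowest vector array.

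**Figure D4:**
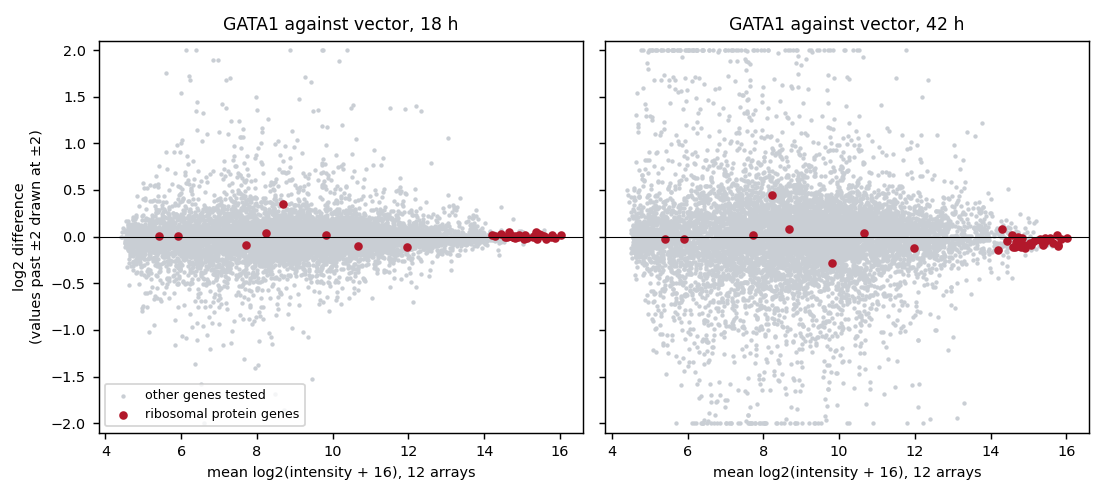
Log2 difference between GATA1 and vector cells against mean log2(intensity + 16) for the 10759 genes tested (grey) and the 42 ribosomal protein genes (red) at 18 h and 42 h; values past 2 in size are drawn at 2. Of the ribosomal protein genes 34 form a compact group at the bright end in both panels, with most points just below 0 at 42 h. The other 8, Rps6 and Rps25 among them, lie at lower levels.

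The next genes at 42 h lay just outside the threshold or further from it. Rpl38, a large subunit protein known for its part in translating Hox messages, read 32608, 32082 and 30968 in vector and 28983, 28229 and 30787 in GATA1 cells. The groups did not overlap, by a narrow gap, and the difference was -0.12 ± 0.04 (SE; limma adjusted p = 0.0704), so Rps25 at 0.0320 and Rpl38 at 0.0704 stood either side of the threshold. Rpl6 (-0.11, adjusted p = 0.111 in limma), Rpl13a (-0.10, 0.111), Rps26 (-0.09, 0.128), Rpl8 (-0.11, 0.130) and Rpl22 (-0.09, 0.132) followed.

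Rps9, with the second largest negative difference at 42 h, read 19100, 19745 and 19401 in vector and 15535, 18316 and 19306 in GATA1 cells. The lowest was GATA1 array A; the difference was -0.14 (interval -0.31 to 0.03) with it and -0.05 without it. Rpl37 (-0.12, interval -0.29 to 0.05) was the third. The largest positive differences after Rps25 were Rps27l (0.09, interval -0.06 to 0.23) and Rpl12 (0.08, interval -0.52 to 0.69).

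Through their brightest probe sets, 5 genes selected from those of Diamond-Blackfan anaemia and the 5q- syndrome were not called at either time. Rps19, the gene most often mutated in that anaemia, read 27391, 26207 and 28138 in vector and 22963, 25849 and 27384 in GATA1 cells at 42 h. Those arrays overlapped, with GATA1 array A the lowest of all 12, and the difference was -0.10 (interval -0.24 to 0.04; limma adjusted p = 0.302), or -0.03 without that array. Rps14 differed by -0.05 (interval -0.15 to 0.04), Rps24 by -0.04 (-0.12 to 0.04) and Rps26 by -0.09 (-0.18 to -0.01). A dimmer probe set of Rps14, averaging 23043 and carrying the suffix x, was called lower at 42 h when counted on its own (-0.16, limma adjusted p = 0.0247). Of all probe sets tested 14.2% were called. Rpl11, which as part of the 5S particle binds MDM2, differed by 0.01 (-0.06 to 0.09). At 18 h these 5 genes lay between -0.01 and 0.02, with intervals within -0.13 and 0.15.

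The stalk proteins, which recruit elongation factors to the large subunit, were also not called. At 42 h Rplp0 differed by -0.01 (interval -0.10 to 0.07) and Rplp2 by -0.09 (-0.20 to 0.01). Rpsa, the small subunit protein that doubles as laminin receptor, differed by -0.09 (-0.25 to 0.08). Rps27l, a copy of Rps27 known as a p53 target, averaged 19567 ± 1402 in vector and 20746 ± 1177 in GATA1 cells at 42 h (SD, n = 3), and the arrays overlapped. Its partner Rps27 differed by -0.02 at an intensity near the bottom of the scale, Rpl39 by -0.03 likewise, and Rps4x, partner of the untested Rps4l, by -0.09 (-0.19 to 0.01). Among the 3 brightest genes, Rps29 and Rpl4 both differed by -0.02 and Rpl13a by -0.10.

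GATA1 array A of 42 h was the lowest of all 12 arrays for 9 of the genes named here. Besides Rps9 and Rps19, the differences at 42 h without it were -0.05 for Rplp2, -0.01 for Rps24, 0.02 for Rplp0, -0.07 for Rps26, -0.09 for Rpl8, -0.07 for Rpl22 and -0.01 for Rps27. None of the 9 was called without it (limma adjusted p between 0.301 and 0.946).

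By subunit, of the 20 small subunit genes tested at 42 h 1 was higher and 1 lower (10%), with a median of -0.05. Of the 22 large subunit genes 0 were called, also with a median of -0.05, where 20.9% of all genes tested were called. Below 0 were 18 of the 20 (90%) and 17 of the 22 (77.3%), against 49% of all genes. At 18 h the medians were 0.01 for small and 0.00 for large subunit genes. Below 0 at that time were 4 of 20 (20%) and 13 of 22 (59.1%), against 58.6% of all genes. The subunits were not tested against each other.

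The difference between the GATA1 effects at 42 h and 18 h was tested as an interaction. Limma called 0 of 42 ribosomal protein genes, against 4.66% of all genes, and 5 had an unadjusted p under 0.05, against 16% of all genes. Of the 42 terms 35 were below 0, against 45% of all genes. The lowest adjusted p was 0.153, for Rps6 (-0.30, interval -0.53 to -0.08), followed in size by Rpl12 (-0.27, -1.12 to 0.59) and Rpl6 (-0.17, -0.31 to -0.02). The largest positive terms were Rps25 (0.41, interval 0.01 to 0.80; limma adjusted p = 0.297), Rpl14 (0.14) and Rpl27a (0.11). The responses of Rps25 and Rps6 were therefore called at 42 h and not at 18 h without being shown to differ between the times.

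In vector cells 0 of 42 genes passed limma's threshold between 18 h and 42 h (0.0186% of all genes did), and 0 had an unadjusted p under 0.05 (6.28% of all genes). The differences, 42 h minus 18 h, were largest for Rpl12 (0.47, interval -0.13 to 1.08), Rps25 (0.12) and Rps15 (0.09) upward and for Rpl37 (-0.09), Rps27l (-0.04) and Rps20 (-0.03) downward. The bright genes lay between -0.04 and 0.09, with intervals within -0.19 and 0.23.

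In GATA1 cells 1 gene was higher and 1 lower at 42 h than at 18 h, 4.76% against 14.6% of all genes (6.72% higher and 7.91% lower), and 35 of 42 differences were below 0 (48.8% of all genes), or 29 of 42 without GATA1 array A of 42 h. They were again Rps25 (0.53 ± 0.12, SE; limma adjusted p = 0.0200) and Rps6 (-0.24 ± 0.07, SE; adjusted p = 0.0473). This comparison uses the same GATA1 arrays of 42 h as the one against vector, so the values stand side by side and not as separate evidence. Rps6 kept the call in 9 of 25 alternatives here and Rps25 in 20 of 25. Rps25 lost it without GATA1 arrays B or C of 18 h or A or B of 42 h, and for Rps6 the fit without any single 18 h array gave an adjusted p between 0.0621 and 0.137, as did the fits without vector array A (0.0637) or GATA1 array B (0.103) or C (0.124) of 42 h. Next came Rps4x (-0.13, adjusted p = 0.0726 in limma), Rps9 (-0.13), and upward Rpl12 (0.21) and Rpl27a (0.19).

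Counting every single-symbol probe set on its own brought in further members of the same genes. Of 100 such probe sets 90 were tested, and at 42 h 2 were higher and 3 lower, 5.56% against 14.2% of all 22881 probe sets tested. Besides those of Rps25 and Rps6 these were the dimmest probe set of Rpl22, the dimmer tested one of Rps3 and the dimmer one of Rps14. They were noticed after the values were seen. Those of Rpl22 and Rps14 carry the suffixes s and x, so their probes may match several transcripts.

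Rpl22, a large subunit protein whose loss affects lymphocyte development, showed the clearest contrast. Its dimmest tested probe set read 1438, 1392 and 1459 in vector and 1071, 1080 and 1120 in GATA1 cells at 42 h. These groups were far apart relative to their spread: the difference was -0.39 ± 0.04 (SE; limma adjusted p = 3.3e-04), and the interaction with time was -0.40 (adjusted p = 0.0101; 2.74% of all probe sets were called for it). The brightest Rpl22 probe set differed by -0.09 and the middle one by 0.02, neither called. The dimmest and the brightest carry the suffix s and may match several transcripts, and the middle one carries no such suffix.

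Rps3, a small subunit protein at the entry of the messenger RNA, behaved in the opposite way. A probe set averaging 520 read 462, 397 and 504 in vector and 680, 600.1 and 532 in GATA1 cells at 42 h, a difference of 0.40 ± 0.11 (SE; limma adjusted p = 0.0478), while the bright probe set, averaging 22274, differed by -0.05. For Rps14 the dimmer probe set differed by -0.16 ± 0.04 (SE; adjusted p = 0.0247 in limma) and the brighter by -0.05. Of the 20 genes with at least 2 tested probe sets, 13 had differences of both signs at 42 h. The range within a gene had a median of 0.14, up to 0.45 for Rps3, which is more than most of the differences between groups given above. Of the 22 tested probe sets without x, s or a in the suffix 10 were below 0 (45.5%; all probe sets of that kind 51.5%), and of the 68 with it 51 were (75%; all probe sets of that kind 49.6%).

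**Figure D5:**
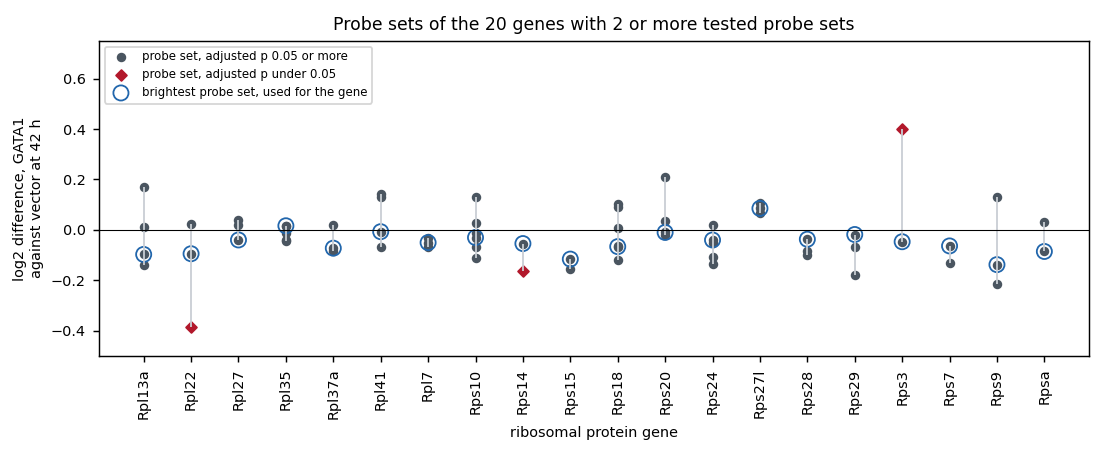
Log2 difference between GATA1 and vector cells at 42 h for every tested probe set of the 20 genes with at least 2; blue rings mark the brightest probe set, which stood for the gene, and red diamonds an adjusted p under 0.05 among all probe sets. The lone outlying diamonds belong to Rpl22 (-0.39) and Rps3 (0.40), whose ringed probe sets lie at -0.09 and -0.05.

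The probe sets with several symbols, of which at least 1 had the form used here, gave a similar count without naming genes. Of 110 such probe sets 106 were tested, and 0 were higher and 1 lower at 42 h (0.943%, against 14.2% of all probe sets tested). Below 0 were 86 of the 106, with a median of -0.07, against 51% of all probe sets.

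Genes around the ribosome were counted from lists. Of 4 ribosomal protein genes that the name pattern misses, 0 were called at 42 h (20.9% of all genes tested were), with a median of -0.09. Rps3a1, a small subunit gene, read -0.10 (limma adjusted p = 0.0937) and Fau, the source of the small subunit protein eS30, -0.10. Of 14 other TOP messages 0 rose and 2 fell at 42 h (14.3% called, against 20.9% of all genes tested). Pabpc1, the poly(A)-binding protein, went from 31782 ± 1347 in vector to 27800.0 ± 1742 in GATA1 cells (SD, n = 3; -0.19, adjusted p = 0.0389 in limma), and Vim, the intermediate filament protein vimentin, from 2288 ± 287 to 731 ± 113 (SD, n = 3; -1.63, adjusted p = 3.04e-04). Tpt1 and Npm1, both also TOP messages, read -0.09 and 0.05 and were not called.

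Of 9 elongation factors 1 rose and 1 fell at 42 h, a share of 22.2% that is near the 20.9% of all genes. Eef1d, a subunit of the exchange factor of eEF1A, rose by 0.28 (limma adjusted p = 0.0294), and Eef2k, the kinase that inhibits eEF2, fell by 0.33 (adjusted p = 0.0431). Eef1a1 and Eef2 read -0.11 and -0.10 without a call. Of 18 initiation factors 2 rose, Eif2s2 (0.22, adjusted p = 0.0342 in limma) and Eif4g2 (0.18, 0.0297), and 0 fell (11.1% called, against 20.9% of all genes).

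Of 18 genes that control ribosomal protein synthesis 1 rose and 1 fell at 42 h (11.1% called, against 20.9% of all genes). Tbpl1, a relative of the TATA-binding protein known from flies to act at ribosomal protein promoters, rose by 0.385 (limma adjusted p = 0.0354), and Mxd4, a partner of MAX that opposes MYC, went from 219 ± 51.6 to 43.3 ± 8.51 (SD, n = 3; -1.97, adjusted p = 2.24e-04). Myc and Mycn read -0.02 and -0.15, Larp1 0.15 and Mtor -0.12, with no call. Tsr2, which carries Rps26 to the ribosome and is itself a Diamond-Blackfan gene, read 0.15 at 42 h against vector (adjusted p = 0.115) and rose by 0.22 between 18 h and 42 h in GATA1 cells (limma adjusted p = 0.0370). At 18 h 0 genes of these lists were called, and only 1.85% of all genes tested were.

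The ribosome of the mitochondrion served for contrast, since its proteins come from separate nuclear genes. Of 76 such genes 10 were higher and 1 lower at 42 h (14.5% called, against 20.9% of all genes). Below 0 were 19 (25%, against 49% of all genes), with a median of 0.10. In GATA1 cells between the times 14 were higher and 0 lower (18.4% called, against 14.6% of all genes, of which 6.72% higher). The cytosolic genes had 1 higher and 1 lower in each of these comparisons, with medians of -0.05 and -0.04. The difference between these lists was not tested. In vector cells between the times 0 of the 76 were called (0.0186% of all genes). There 18 of the 76 were below 0 (57.1% of all genes), with a median of 0.06. For the interaction 1 of the 76 was called, higher (4.66% of all genes called). Whether fewer cells of a type or less RNA per cell moved any of these bulk values cannot be told apart.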

How the data were processed

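RNA of 12 samples in 4 groups of 3 was hybridised to Affymetrix arrays. For 45101 probe sets the authors deposited 1 intensity per array on a linear scale; per the submitters' processing notes GCRMA and MAS5 were used, without versions and without saying which made these intensity values. Genes were named through the platform annotation (1 symbol for 34945 probe sets, several for 932); all 46 gene IDs matched RefSeq's gene table. Values were analysed as log2(intensity + 16), which understates the change of dim genes, with no further normalization. Genes entered the test if their brightest probe set was above the median of the array for 3 or more of the 12 arrays (10759 genes). Limma 3.58.1 in R 4.3.3 (lmFit, eBayes; two-sided) fitted all 12 arrays in 4 groups sharing 1 spread; p-values were adjusted by Benjamini-Hochberg across the tested genes (threshold 0.05), and intervals are 95%. The same fit over 22881 probe sets gave the probe set values. The script was tested on simulated data. The members and lists were chosen with earlier results of these data known. Named genes were the largest differences in each direction (3 where fewer than 3 passed), the anaemia, stalk and suffix-l genes with their partners, the brightest and dimmest, those either side of the threshold, and up to 2 called genes a direction from each list; others singled out are said to be. Alternatives covered the pseudocount, filter, scaling, choice of probe set, array weights, replicate block, samples in the fit, and each array left out; the prior that follows the level, leaving out the 4 arrays lettered A, and single probe sets were added after seeing the data. Promoter sequences are RefSeq's, assembly GRCm38.p6.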

Additional observations from a re-analysis of the deposited data

How the results depend on the processing

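Limma's counts of ribosomal protein genes called were 0 at 18 h, in vector cells over time and for the interaction under every alternative on genes. Of all genes these alternatives called 0.316% to 3.33%, 0 to 0.381% and 1.75% to 7.86% in these comparisons. Only single probe sets gave 1 lower for the interaction (2.74% of all probe sets were called). At 42 h against vector (1 higher, 1 lower as reported) the count higher became 0 with no filter, with the second brightest probe set and without the 4 arrays lettered A, and 2 with probe sets free of the suffixes x, s and a or with all probe sets. The count lower became 2 with a pseudocount of 64, quantile normalization or the mean over probe sets, 6 with array weights, 3 with all probe sets, and 0 with only the arrays compared, the second brightest probe set or without the arrays lettered A. Across these settings 9.65% (no filter) to 27.2% (array weights) of all genes or probe sets were called at 42 h. The share of ribosomal protein genes was lower in each, 16.7% with array weights. In GATA1 cells over time the count higher became 0 with the second brightest probe set or without the arrays lettered A. The count lower became 0 with a pseudocount of 1, no filter, a filter at 100, only the arrays compared, the second brightest probe set, the prior that follows the level or without the arrays lettered A, 2 with a pseudocount of 64 or quantile normalization, and 7 with array weights. Here 6.28% (no filter) to 27.2% (array weights) of all genes were called, and again a lower share of ribosomal protein genes in each setting, 19% with array weights. With 1 array left out at a time, each of these 4 counts ran from 0 to 1. Of all genes 15.7% to 20.6% were then called at 42 h and 9.82% to 14.9% in GATA1 cells over time. A second probe set existed for 20 tested genes, so that alternative tests fewer genes; the cause of the other moves was not tested. The median turned sign at 42 h with probe sets free of those suffixes (-0.0498 to 0.0045), and at 18 h with quantile normalization (0.0083 to -0.0023) or without GATA1 array C (-0.007). Uncalled genes also turned at 42 h with the second brightest probe set, as Rpl22 (0.02) and Rps9 (0.13). Rps25 and Rps6 kept their direction at 42 h and in GATA1 cells over time in all alternatives run. Many of these could not move it. The filters, the replicate block, the fit on the arrays compared, the prior and leaving out an array of another group left the difference itself unchanged. Neither gene had a tested second probe set, and the choice of probe sets free of those suffixes kept the same one for both.

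With the letter as a replicate block the counts at 42 h were 1 higher and 1 lower, those in GATA1 cells over time also 1 and 1, and all others 0, while the share of all genes called went from 1.85% to 3.33% at 18 h and from 20.9% to 28.4% at 42 h. The labels do not say what a letter marks. The deviations of same-letter arrays from their group means correlated above 0.1 in 16 of 18 pairs (range -0.11 to 0.66; at least 0.33 for letters A and C), but not in 2 pairs of letter B, so the letters were not taken as pairs. For 11 of 12 arrays the highest correlation was with an array of the same letter, a hint from the data that letters mark shared sets.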
